A study of Mus musculus with 18 samples.

Results

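Messenger RNAs of wild-type mouse embryonic stem cells were compared between the heavy polysomes and the monosome of the same sucrose gradients. The comparison used 6 of the 18 libraries of the series, chosen by their labels: the monosome and the high polysome of wild-type gradients 1, 2 and 3. The cells were of the V6.5 line, cultured with serum, LIF and the 2i inhibitors, and carried no deletion. The other libraries were the low polysome of the same gradients and all fractions of cells that lack the RNA helicase Ddx6. Before lysis, cycloheximide was given to all cells to hold ribosomes on their mRNAs. The low polysome held mRNAs with about 2 to 4 ribosomes and the high polysome those with more than 4. QuantSeq 3′ libraries were sequenced, in which reads come from transcript 3′ ends, so that a count is not scaled by length. The labels number the libraries of each fraction, and libraries of the same number were taken to come from 1 gradient. They do not say whether the gradients came from separate cultures. The p-values then measure only the spread between gradients, estimated over all 18 libraries, which may be technical.

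A ribosome that translates alone on an mRNA sediments as a monosome, and each further ribosome moves the mRNA deeper into the gradient. How many ribosomes an mRNA carries depends on how often translation starts, how fast ribosomes elongate and how long the coding sequence is. A short coding sequence has room for few ribosomes. RNA that is not translated can sediment beside the monosome when it is bound in a particle of similar mass, so presence in the monosome fraction is not by itself a sign of translation. The ratio of high polysome to monosome is called the translation level here, after the usage of the study.

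Of 51467 genes in the table, 12705 reached 3 CPM in at least 3 of the 18 libraries and were tested. In the high polysome, 3794 genes (29.9%) were higher than in the monosome and 4188 (33.0%) were lower, by limma with Benjamini-Hochberg adjusted p under 0.05. Counts of list members given below are to be read beside these shares. The share called higher also differed with level. Among protein-coding genes it was 12.1% below a mean of 10 CPM, 40.6% at 30 to 100 CPM and 56.6% at 300 to 1000 CPM. Above 1000 CPM 42.05% were higher and 48.9% lower. The lists were not matched for level, so a share above 29.9% in a list of abundant mRNAs may not be particular to it. A log2 difference of more than 1 was fitted for 1640 higher and 2679 lower genes. Beyond a log2 difference of 3 lay 4 higher and 354 lower genes, so the distribution had its long tail on the monosome side, from a first percentile of -4.03 to a 99th percentile of 1.84. The monosome and high polysome libraries did not overlap in 8686 of the 12705 tested genes, so a lack of overlap was common. The 3 monosome libraries held 2543617 to 4894677 reads and the 3 high polysome libraries 8055321 to 10289531. Levels are in CPM (counts per 1000000 counts of the library, with library sizes scaled by TMM), so each difference is relative to the other transcripts of its fraction. These are bulk fractions, in which fewer cells with a loaded transcript and a lower loaded share in every cell cannot be told apart. Levels of cell type markers were taken in CPM of the library total, without the TMM scaling. All 10 markers of embryonic stem cells were at 1 CPM or more in each of the 6 libraries, with a summed level of 3151 to 3221 CPM in the monosome and 5218 to 6790.0 CPM in the high polysome. Of 10 markers of feeder fibroblasts 4 reached that level, with a summed level of at most 17.1 CPM, and Col3a1 and Postn were at 0. None of 8 primitive endoderm markers reached it. Of 7 trophoblast markers 3 did, with a summed level of 145 to 180.4 CPM, most of it from Tfap2c, as did 4 of 7 epiblast-like markers, with a summed level of 137 to 187 CPM and Fgf5 at 0. Their part in the differences between fractions was not tested.

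Many mRNAs of the translation machinery share a type of sequence at their start. Terminal oligopyrimidine (TOP) mRNAs begin with a cytosine followed by an unbroken run of pyrimidines, through which mTOR signalling and the RNA-binding protein Larp1 control their entry into polysomes. The stretches below are the genome sequence around the annotated start in RefSeq (GRCm38.p6), 5′ to 3′, with the run in capitals. They are shown because they belong to mRNAs of very different translation level, from the far monosome side (Rps12, Rplp2) to no difference past the test (Rpl15).
Rps12: cgccggCCTTTTCCCCTgccgccgcc
Rplp2: cagcgtCTTCCTTTCgccgccggacg
Rack1: aggccgCTCTTTCTTTTTCTCCacag
Eif3f: tctaggCTCTCTCTCTTTCTCggcaa
Rps9: ccttgtCTCTCTTTgtctcgggcctg
Rpl15: agaaagCCTTCTTCCTTTCCTCTggc
They lie at chr10:23787182-23787207 on the minus strand (Rps12), chr7:141447641-141447666 on the plus strand (Rplp2), chr11:48800348-48800373 on the plus strand (Rack1), chr7:108934405-108934430 on the plus strand (Eif3f), chr7:3704030-3704055 on the plus strand (Rps9) and chr14:18270971-18270996 on the minus strand (Rpl15). A run was counted where a C and at least 7 further pyrimidines stood on the sense strand between 30 bases before and 50 bases after the start, a search chosen after the values were seen. It was found in 48 of the 59 tested ribosomal protein genes with a RefSeq promoter entry (81.4%), in 6 of 12 other TOP genes and in 23.1% of all 32851 mouse promoters. The 48 ribosomal protein genes with a run had a median log2 difference of -1.53 ± 0.102 (SD, n = 3 gradients), and the 11 without one a median of -2.13 ± 0.120. Outside these lists, 2363 of 9249 genes held a run, with a median of 0.03 ± 0.0281 against 0.08 ± 0.00279 for those without. A match describes the letters near an annotated start and not the measured 5′ end of these mRNAs.

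Ribosomal protein mRNAs lay on the monosome side and differed widely among themselves. Of the tested genes for large-subunit proteins, 45 of 51 were lower in the high polysome (against 33.0% of all genes) and 1 was higher, with a median log2 difference of -1.48 ± 0.079 (SD, n = 3 gradients), and of the small-subunit genes 30 of 31 were lower and 1 higher, with a median of -1.72 ± 0.13. The large-subunit genes took 3.55% ± 0.0674 of the monosome counts and 1.09% to 1.19% of the high polysome counts (mean ± SD or range, n = 3), and the small-subunit genes 5.52% ± 0.265 and 1.61% ± 0.0239. Of the 3 fractions, the level was highest in the monosome for 48 of the 51 large-subunit and 28 of the 31 small-subunit genes. Many of these genes have processed pseudogenes of nearly the same sequence, and counting unique reads leaves part of their reads out, so the order among single members is uncertain.

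Rpl41, whose protein is among the smallest known, had the lowest translation level of the large subunit. It lies at chr10:128548114-128549305 (GRCm38). Its levels in the monosome of gradients 1, 2 and 3 were 1963, 2146 and 2225 CPM, and 95.3, 102 and 135 CPM in the high polysome. The log2 difference was -4.27 (SE 0.15, limma adjusted p = 2.88e-12), and no high polysome library came near a monosome library. Rplp2, an acidic stalk protein, fell from 1312, 1219 and 1380 CPM to 188.5, 188 and 178 CPM, a log2 difference of -2.82 (SE 0.11). Rps9, a small-subunit protein, stood at 1521, 1313 and 1459 CPM in the monosome and at 999.9, 899.8 and 937 CPM in the high polysome, so that the groups did not overlap but the log2 difference was only -0.60 (SE 0.11, limma adjusted p = 0.000203). Rps27l, a paralog of Rps27 and a p53 target, was lower by a log2 difference of -3.15. For Rpl15 the monosome libraries read 105, 84.0 and 74.7 CPM and the high polysome libraries 63.2, 104 and 75.3 CPM. Those groups overlapped, and the log2 difference of -0.12 was not past the test (limma adjusted p = 0.742).

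The exceptions of the ribosomal protein lists were Rps27a and Rpl10l. Rps27a encodes ubiquitin fused to a ribosomal protein. It read 21.8, 19.2 and 15.1 CPM in the monosome and 44.8, 45.8 and 42.0 CPM in the high polysome, a log2 difference of 1.28 (SE 0.27, limma adjusted p = 0.000512). Rpl10l, a retrogene copy of Rpl10, read 55.5, 48.6 and 38.8 CPM against 154, 130 and 135 CPM, a log2 difference of 1.58 (SE 0.16). In both genes the fractions did not overlap. Rpl10l shares most of its sequence with its parent gene, and its count is uncertain for that reason.

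Elongation factors and the other TOP mRNAs were on the same side as the ribosomal proteins, with 14 of 20 lower and 4 higher and a median log2 difference of -1.27 ± 0.099. Rack1, a scaffold protein of the small subunit, read 8333, 8538 and 9943 CPM in the monosome and 2669, 2248 and 2542 CPM in the high polysome. Eef2, which moves the ribosome along the mRNA, read 4794, 4547 and 4870 CPM in the monosome and 576, 394 and 559 CPM in the high polysome. Pabpc1, the cytoplasmic poly(A)-binding protein, went from 6334, 5761 and 7489 CPM to 769, 638 and 999.7 CPM. In each of the 3 genes every monosome library was above every high polysome library. The log2 differences were -1.85 (SE 0.13) for Rack1, -3.24 (SE 0.19) for Eef2 and -3.04 (SE 0.14) for Pabpc1. The 4 higher genes were Btf3 at 1.20, Eef1d at 0.83, Eif3e at 0.51 and Npm1 at 0.43. Btf3, a subunit of the nascent polypeptide-associated complex, was counted at 5.79 to 9.13 CPM in the monosome and at 15.3 to 20.1 CPM in the high polysome. Its call was lost without replicate 2 (log2 difference 0.90) and without replicate 3 (1.31), and that of Npm1 without replicate 2 (0.37).

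Initiation factors leaned to the other side, although their list and the TOP list are not separate and share at least Eif3f. Of 39 eIF genes, 22 were higher in the high polysome and 9 lower, with a median log2 difference of 0.50 ± 0.098. Eif2s1, the alpha subunit of eIF2 that is phosphorylated under stress, read 41.7, 42.6 and 31.4 CPM in the monosome and 118, 146 and 118 CPM in the high polysome, a log2 difference of 1.74 (SE 0.14). On the lower side, Eif3f, a subunit of the eIF3 scaffold whose start is shown above, went from 770, 703 and 785 CPM to 294, 259 and 262 CPM, a log2 difference of -1.47. Eif4a2, one of the eIF4A helicases, had a log2 difference of -1.41. Cytosolic aminoacyl-tRNA synthetases, which charge tRNAs, were higher for 11 of 20 genes. The 2 lower ones were Qars, with 349.9, 337 and 399 CPM against 184, 153 and 197 CPM, and Vars at -1.02. Hars, the histidine enzyme, read 27.8, 38.9 and 27.7 CPM in the monosome and 128, 117 and 106 CPM in the high polysome.

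**Figure D1:**
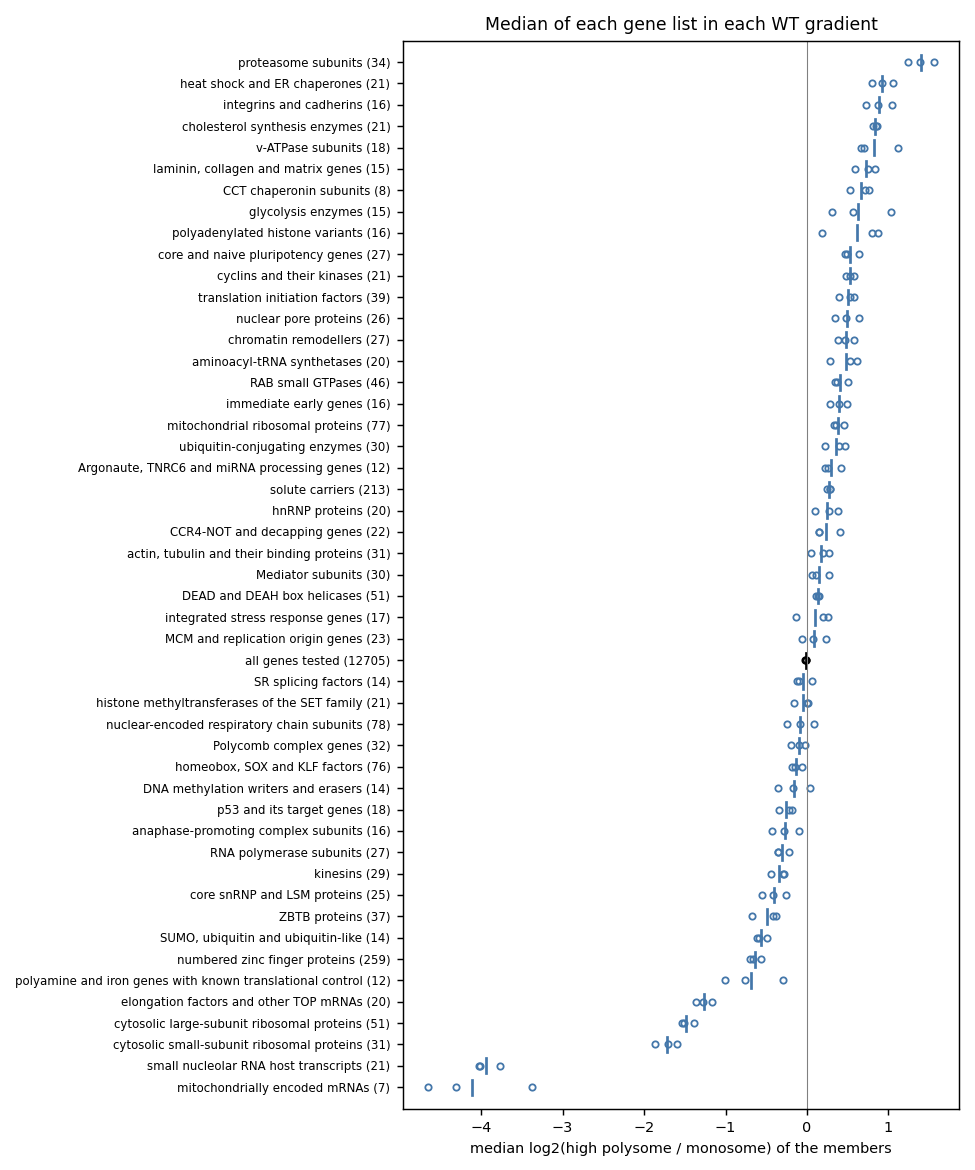
The gene lists are ordered by their median log2 difference between high polysome and monosome (x axis, log2 of TMM-scaled CPM plus 0.5), with 1 point per wild-type gradient. Mitochondrially encoded mRNAs and snoRNA host genes sit at the far left and proteasome subunits at the far right, at a median of 1.40.

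The proteasome, the protease that degrades ubiquitinated proteins, was the only list whose tested members were all higher in the high polysome, 34 of 34 against 29.9% of all genes. The call of Psma3, a core subunit, was lost without replicate 3 (log2 difference 0.59, against 0.72 with all gradients). The median log2 difference was 1.40 ± 0.16 (SD, n = 3 gradients), and the low polysome lay only 0.16 above the monosome. The level was highest in the high polysome for 33 of the 34 genes. Together they took 0.617% ± 0.0532 of the monosome counts and 1.56% ± 0.0504 of the high polysome counts. Psmb5, the subunit with the chymotrypsin-like site, read 57.1, 71.5 and 70.6 CPM in the monosome and 303, 310.2 and 311 CPM in the high polysome. The high polysome libraries lay close together and far above the monosome, with a log2 difference of 2.21 (SE 0.12, limma adjusted p = 2.45e-10). Psma4, of the outer ring of the core, read 34.9, 58.1 and 36.1 CPM and 161, 237 and 165 CPM. The smallest difference named is that of Psmd1, a scaffold of the regulatory particle, at 42.5, 46.8 and 40.5 CPM against 55.2, 73.5 and 68.9 CPM, a log2 difference of 0.62 (SE 0.13) with groups that did not overlap.

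Folding factors went the same way in most members but not in the most abundant one. Of 21 heat shock and endoplasmic reticulum chaperones, 14 were higher and 3 lower, with a median of 0.92 ± 0.12. Pdia6, a disulfide isomerase of the endoplasmic reticulum, read 469, 571 and 430.4 CPM in the monosome and 2307, 1825 and 2045 CPM in the high polysome, a log2 difference of 2.07 (SE 0.14). Hsp90ab1, the constitutive cytosolic Hsp90, read 7106, 5857 and 6850.0 CPM and 3176, 2257 and 2902 CPM, a log2 difference of -1.26 (SE 0.16, limma adjusted p = 4.09e-06). The other lower members were Hspe1, the mitochondrial co-chaperonin, at -0.89 and Hspa8, the constitutive Hsp70, at -0.82. Subunits of the CCT chaperonin, which folds actin and tubulin, were higher in 5 of 8 genes and lower in none. Cct6a rose from 442, 418 and 399 CPM to 1078, 1233 and 1061 CPM, and Cct2 was not past the test at -0.27. Actb, a substrate of that chaperonin, read 1507, 1952 and 1246 CPM against 7588, 5212 and 6207 CPM, a log2 difference of 2.02 (SE 0.19). Of the actin and tubulin genes and their binding proteins 14 of 31 were higher and 9 lower.

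Ubiquitin-like proteins and their enzymes were split. Ubiquitin-conjugating enzymes of the UBE2 family were higher in 11 of 30 genes (36.7%, against 29.9% of all genes) and lower in 5 (16.7%, against 33.0%). Among them Ube2z read 126, 127 and 126 CPM against 380.3, 396 and 352 CPM. Of the SUMO and ubiquitin-like proteins themselves, 7 of 14 were lower, among them Ubl5, a spliceosome cofactor, at -1.92, and 3 higher. The higher ones were Ubb, the polyubiquitin gene, with 26.2, 39.3 and 28.9 CPM against 116, 116 and 122 CPM, and the autophagy genes Atg12 at 0.63 and Gabarapl1 at 0.51. Members of this list are short, and 10 of the 14 were highest in the low polysome.

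**Figure D2:**
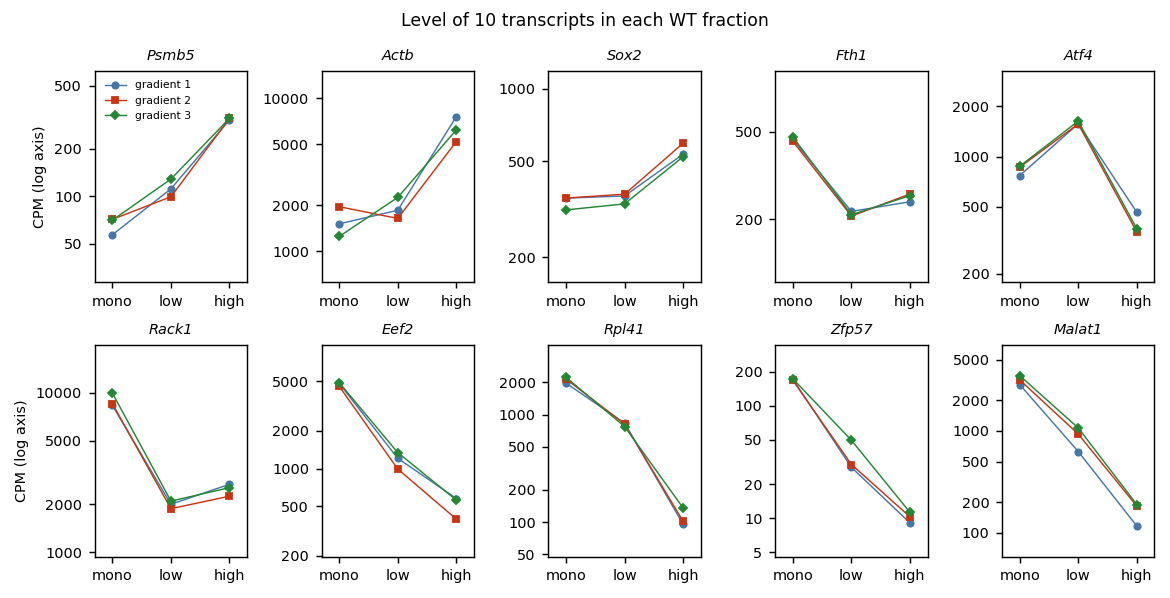
Levels of single genes in each wild-type library (y axis, log scale, TMM-scaled CPM), with monosome, low polysome and high polysome on the x axis and 1 line per gradient. The 3 gradients run close together in each panel, and Psmb5 climbs to 303 to 311 CPM in the high polysome while Zfp57 drops to 9.08 to 11.3 CPM.

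Mitochondrial proteins come from mRNAs of the nucleus, read in the cytosol, and from a few mRNAs of the mitochondrial genome, read by ribosomes inside the organelle. All 7 tested mRNAs of the mitochondrial genome were lower in the high polysome. mt-Nd4 went from 2723, 3479 and 2117 CPM to 65.6, 109.8 and 129 CPM, and mt-Co1 from 4442, 3729 and 2727 CPM to 177, 332 and 290.0 CPM. The 7 genes took 1.52% ± 0.326 of the monosome counts and 0.0904% ± 0.0280 of the high polysome counts. The nuclear genes for mitochondrial ribosomal proteins were higher in 41 of 77 and lower in 17, with a median of 0.38 ± 0.063, and so lay apart from their cytosolic counterparts. Mrpl3 read 29.8, 34.7 and 27.7 CPM against 90.8, 90.1 and 84.9 CPM. Mrpl23 read 26.6, 26.4 and 36.3 CPM against 1.53, 3.39 and 2.44 CPM.

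Nuclear-encoded subunits of the respiratory chain and the ATP synthase were divided almost evenly, 30 higher and 31 lower of 78, with a median log2 difference of -0.08 ± 0.16. By fraction, 49 of these genes peaked in the low polysome, 22 in the high one and 7 in the monosome. The division ran along the length of the coding sequence, at a limit of 500 nt set after the values were seen. Of 47 subunits with a shorter coding sequence 6 were higher and 28 lower, with a median of -0.91 ± 0.12. These shares were near those of all short protein-coding genes, of which 152 of 1053 were higher and 611 lower. Of the 31 longer ones 24 were higher and 3 lower, with a median of 0.78 ± 0.13. Cox8a, a short subunit of cytochrome oxidase, read 2767, 2730.0 and 2340.0 CPM in the monosome and 196, 247 and 232 CPM in the high polysome, a log2 difference of -3.54. Atp5b, the catalytic beta subunit of the ATP synthase, read 554, 653 and 576 CPM and 2094, 1993 and 1974 CPM, a log2 difference of 1.77. Ndufa9, a subunit of complex I, rose from 48.4, 48.4 and 59.2 CPM to 219, 219 and 211 CPM.

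Of all tested protein-coding genes with a coding sequence below that limit, 611 of 1053 were lower and 152 higher, with a median of -0.73 ± 0.043, and of those above it 2832 of 10708 were lower and 3604 higher. Some other lists divided at the limit and some did not. Subunits of the vacuolar proton pump were lower in 4 of 5 short genes, with a median of -0.99, and higher in 10 of 13 long ones, with a median of 1.09. Atp6v1e1, a stalk subunit, read 55.2, 89.3 and 58.4 CPM against 302, 302 and 281 CPM. Atp6v1f, a small subunit of the same pump, read 858, 752 and 934 CPM against 359, 273 and 281 CPM, with a mean of 1566 CPM in the low polysome. Spliceosomal Sm and LSM proteins were lower in 10 of 16 short genes, a share near that of all short genes, and higher in 7 of 9 long ones. Snrpb, the SmB protein, had a log2 difference of 2.13, from 107, 154 and 104 CPM to 509, 516 and 564 CPM, and Snrpg, the small SmG protein, one of -2.52, from 156, 178 and 159.6 CPM to 32.1, 26.4 and 28.1 CPM. RNA polymerase subunits were lower in 5 of 9 short genes, again near the share of all short genes, and the long ones were divided, with 4 higher and 5 lower of 18. In the anaphase-promoting complex 4 of 5 short genes were lower and 5 of 11 long ones higher. Polr2l stood at -3.07 and Anapc13 at -2.03. Initiation factors had the opposite order by median only, at 1.07 in 5 short genes and 0.49 in 34 long ones. By calls, 3 of the short genes were higher and 2 lower, and 19 of the long ones higher and 7 lower. The p53 list had medians of 0.69 in 3 short genes, with 2 higher, and -0.42 in 15 long ones, with 2 higher and 8 lower. Ubiquitin-conjugating enzymes had medians of 0.33 and 0.39. Cytosolic ribosomal proteins were lower in both length classes, further so in the short one. The large-subunit medians were -1.61 ± 0.0540 in 27 short genes, of which 24 were lower, and -1.11 ± 0.156 in 22 long ones, of which 19 were lower. For the small subunit they were -2.15 ± 0.181 in 23 short genes and -1.37 ± 0.0802 in 8 long ones.

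**Figure D3:**
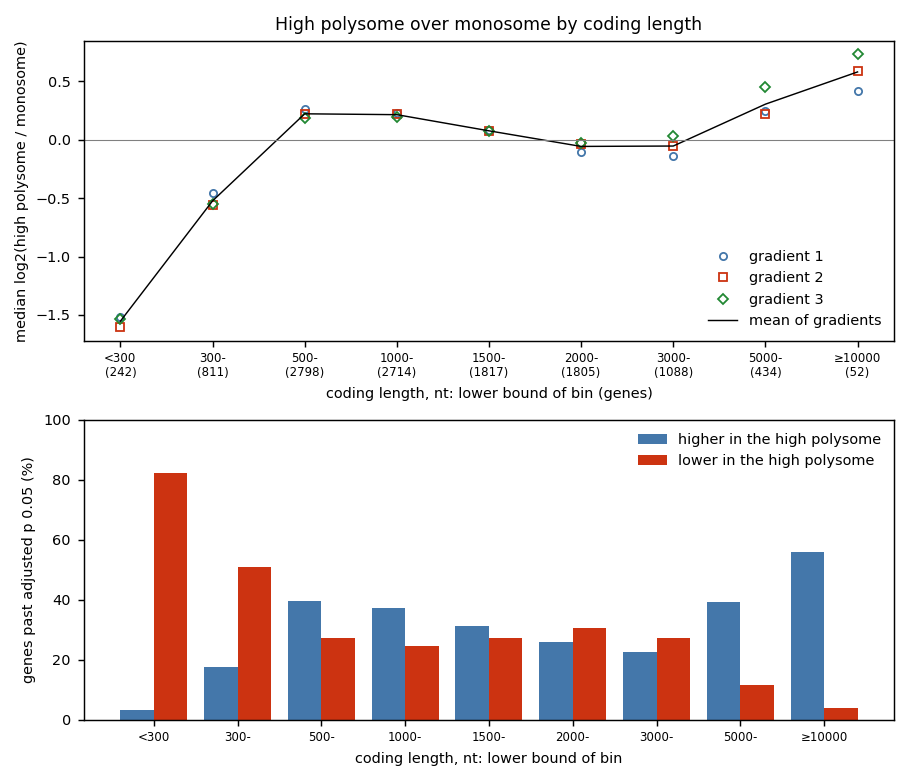
Median log2 difference between high polysome and monosome (y axis) over protein-coding genes in bins of coding length (x axis, nt), with 1 point per wild-type gradient. The shortest bin lies at -1.55, bins from 500 to 1500 nt lie above 0, and the bins from 5000 nt upward reach 0.31 and 0.58.

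Over all protein-coding genes the relation to coding length was not a straight line. In the 242 genes with fewer than 300 nt of coding sequence, 82.2% were lower in the high polysome and 3.31% higher, with a median of -1.55 ± 0.045. For the 811 genes of 300 to 500 nt the median was -0.52 ± 0.056. Both short classes were above the monosome in the low polysome, by a median of 0.20 and 0.38. Medians were 0.22 in the 2798 genes of 500 to 1000 nt and again in the 2714 genes of 1000 to 1500 nt, then -0.06 in the 1805 genes of 2000 to 3000 nt. They were higher again at 0.31 ± 0.13 in the 434 genes of 5000 to 10000 nt and at 0.58 ± 0.16 in the 52 genes above that, of which 55.8% were higher and 3.85% lower. Kmt2d, a histone H3 lysine 4 methyltransferase with a coding sequence of 16770 nt, read 13.5, 19.2 and 11.3 CPM in the monosome and 38.1, 39.1 and 41.7 CPM in the high polysome. Length, level and other gene features are correlated with one another, and their separate parts were not tested.

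Polyamine and iron genes are regulated at translation and were examined one by one. Oaz1, the antizyme that destroys ornithine decarboxylase and needs a ribosomal frameshift, read 69.4, 83.1 and 47.7 CPM in the monosome and 13.8, 9.17 and 15.4 CPM in the high polysome, a log2 difference of -2.37. Amd1, which makes the aminopropyl donor for polyamines, was lower too, from 15.9, 19.2 and 13 CPM to 4.99, 4.78 and 2.91 CPM. Azin1, the inhibitor of the antizyme, was on the other side, at 46.8, 42.6 and 44.0 CPM against 70.2, 98.4 and 78.8 CPM. Odc1, the decarboxylase itself, overlapped between fractions, with 34.5, 31.5 and 33.9 CPM against 32.4, 43.2 and 37.7 CPM, and was not past the test (limma adjusted p = 0.471).

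Iron-responsive elements are stem-loops that the iron regulatory proteins bind. In a 5′ UTR the bound protein keeps ribosomes off the mRNA, and in the 3′ UTR of the transferrin receptor it protects the mRNA from decay. Single sites of 3 genes are shown, from GRCm38, 5′ to 3′, with the bulged C, the 5 bases after it and the loop letters in capitals.
Fth1, 5′ UTR: gtttcctgCTTCAACAGTGCttgaacgg
Ftl1, 5′ UTR: gtgtcttgCTTCAACAGTGTttgaacgg
Tfrc, 3′ UTR: gtaattatCGGGAACAGTGTttcccata
They lie at chr19:9982730-9982757 (plus strand), chr7:45459782-45459809 (minus strand) and chr16:32631708-32631735 (plus strand). The letters searched, on the sense strand only, were CNNNNNCAGTG and then a base other than G, and they also occur in 6.09% of 20661 mouse 5′ UTRs and 26.6% of 20786 3′ UTRs. Fth1, the ferritin heavy chain, read 460.2, 452 and 473 CPM in the monosome and 240.5, 261 and 256 CPM in the high polysome, a log2 difference of -0.87 (SE 0.11). Ftl1, the light chain, has many pseudogenes, so that its unique count is uncertain. It read 7.54, 6.71 and 8.88 CPM against 1.15, 0.797 and 0.469 CPM, a log2 difference of -3.25 (SE 0.57). Tfrc, the transferrin receptor, read 102, 144 and 138 CPM against 142, 163 and 205 CPM. The groups overlapped, and its log2 difference of 0.40 (limma adjusted p = 0.0129) was lost without replicate 3 (0.31). Mitochondrial iron importers, a pair of solute carriers, were among the lowest of their family: Slc25a37 at -3.50 and Slc25a28 at -2.79.

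Genes of central metabolism leaned to the high polysome. Glycolytic enzymes were higher in 8 of 15 genes and lower in none. Their median of 0.63 ± 0.36 varied widely between gradients, from 0.30 to 1.025. Tpi1, triosephosphate isomerase, read 56.7, 69.2 and 37.8 CPM in the monosome and 219.5, 191 and 209.5 CPM in the high polysome, and Ldha, lactate dehydrogenase A, 137, 145 and 112 CPM and 462, 388 and 422 CPM. Gapdh had under 5 CPM in all 6 libraries, with overlapping groups and a log2 difference of 0.45, and its many pseudogenes make its unique count uncertain. Cholesterol synthesis genes were higher in 15 of 21 and lower in 3, with a median of 0.84 ± 0.024 that differed little between gradients. Nsdhl, a sterol dehydrogenase, read 18.7, 22.9 and 16.5 CPM against 75.2, 57.0 and 63.9 CPM. The lower genes were Lss, which closes the sterol rings, at -1.06, Mvk, mevalonate kinase, at -0.55 and Tm7sf2, a sterol reductase, at -0.51.

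Secreted and membrane proteins were on the same side. Extracellular matrix genes were higher in 9 of 15 and lower in none, with a median of 0.72 ± 0.12. Sparc, a collagen-binding matrix protein, read 1022, 1249 and 1009 CPM in the monosome and 4127, 3370.0 and 3816 CPM in the high polysome, and Lamc1, a laminin chain, 127, 137 and 151 CPM and 356, 321 and 452 CPM. Integrins and cadherins were higher in 8 of 16 genes, with Itgb1, the common beta chain, at 184, 237 and 229.9 CPM against 586, 609.5 and 681.5 CPM. The lower one was Itga10, which rests on few reads, at 2.38 to 3.92 CPM against 0.0938 to 0.256 CPM. Of 213 solute carriers 82 were higher and 45 lower. Slc7a5, a transporter of large neutral amino acids, read 711, 699 and 689.6 CPM against 2980.0, 1602 and 2000 CPM. RAB GTPases, which direct vesicle traffic, were higher in 23 of 46 and lower in 9. Rab1a, of the early secretory pathway, read 73.8, 69.9 and 80.1 CPM against 248, 375 and 265 CPM, and Rab28 read 71.4, 67.4 and 55.1 CPM against 12.7, 11.2 and 14.5 CPM.

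Most regulators of pluripotency were on the heavy side. Among 27 of them, 16 were higher, 5 lower and 6 not past the test, with a median of 0.53 ± 0.094. Tfcp2l1, a transcription factor of the naive state, read 343, 384 and 309.8 CPM in the monosome and 842, 1052 and 933 CPM in the high polysome, a log2 difference of 1.45 (SE 0.11, limma adjusted p = 1.38e-08). Nr0b1, an orphan nuclear receptor, read 12.7, 16.9 and 5.37 CPM against 52.6, 56.3 and 48.5 CPM. Esrrb, another nuclear receptor, read 130, 162 and 145 CPM against 298, 299.9 and 291 CPM. In these 3 genes each high polysome library was above each monosome library.

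The core factors had smaller differences. Sox2 read 352, 352 and 314 CPM in the monosome and 535, 594 and 522 CPM in the high polysome, a log2 difference of 0.70 (SE 0.096). Nanog read 286, 306 and 227 CPM against 425, 511 and 464 CPM, a log2 difference of 0.78 (SE 0.16). Pou5f1, which encodes Oct4, read 27.0, 26.6 and 22.1 CPM against 35.3, 37.7 and 40.7 CPM, and its log2 difference of 0.62 (limma adjusted p = 0.0101) was lost without replicate 3 (0.45). In none of the 3 did the groups overlap. Pou5f1 was counted far below Sox2 and Nanog, and whether counting unique reads left part of its reads out was not tested. Dppa5a, an RNA-binding marker of these cells, stood at 805, 685 and 804 CPM against 1616, 2350.0 and 2006 CPM, and its log2 difference of 1.37 (SE 0.44) was lost without replicate 2 (1.16). For Klf4 the libraries overlapped at 520.1, 505 and 566 CPM against 535, 432 and 428 CPM (limma adjusted p = 0.214).

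The lower pluripotency genes included the growth factor and signal transducer of the circuit. Fgf4, whose signal through ERK moves cells out of the naive state, read 1456, 1389 and 1347 CPM in the monosome and 754, 773 and 759 CPM in the high polysome, a log2 difference of -0.87 (SE 0.10). Stat3, which carries the LIF signal, read 140.0, 112 and 137 CPM against 62.4, 73.2 and 75.3 CPM, and Prdm14, a repressor of the FGF pathway, 19.4, 21.1 and 21.1 CPM against 8.44, 11.6 and 13.1 CPM. Tbx3 stood at -0.60. L1td1, which derives from a LINE-1 element, had overlapping groups at -0.31 and lost its call under 9 of the alternatives tried, with values of -0.37 to -0.13. Among homeobox, SOX, KLF and related factors 9 of 76 were higher (11.8%, against 29.9% of all genes) and 21 lower (27.6%, against 33.0%). E2f1, a cell cycle factor, read 436, 379 and 520.2 CPM against 67.0, 54.4 and 70.3 CPM, and Foxd3 37.7, 40.5 and 39.6 CPM against 105, 99.1 and 85.7 CPM.

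Zinc finger genes leaned to the monosome. Of 259 numbered Zfp genes 142 were lower and 17 higher, with a median of -0.64 ± 0.067, and 165 were highest in the monosome. Zfp57, which protects imprinted methylation, lies at chr17:37001163-37010635 (GRCm38) and read 172, 168 and 174 CPM in the monosome and 9.08, 10.3 and 11.3 CPM in the high polysome. Its log2 difference was -4.06 (SE 0.17, limma adjusted p = 1.36e-11). Zfp773 was at -4.11 and Zfp329 at -3.34. The exceptions among those at 10 CPM or more included Zfp106, an RNA-binding protein, at 0.89 with 243, 253 and 289 CPM against 406, 554 and 501 CPM, and Zfp207, a kinetochore protein, at 0.83. The ZBTB family, which pairs zinc fingers with a BTB domain, was lower in 16 of 37 and higher in 2, Zbtb25 and Zbtb46, with Zbtb7a at -2.19. The call of Zbtb25 was lost without replicate 3 (0.46).

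When protein-coding genes were ordered by the number of C2H2 finger patterns in their translated sequence, the median was 0.09 ± 0.0049 for the 11290 genes with none. It was -0.23 ± 0.015 for 172 genes with 1 to 4, -0.64 ± 0.029 for 127 genes with 5 to 9, -0.63 ± 0.054 for 113 genes with 10 to 14 and -0.79 ± 0.26 for 59 genes with 15 or more. Of genes with 5 to 9 fingers 2.36% were higher and 54.3% lower. Genes with upstream ATGs in the annotated 5′ UTR showed a smaller gradation. The 5780 genes without one had a median of 0.14 ± 0.022 and the 196 genes with 10 or more a median of -0.17 ± 0.095. These numbers rest on 1 annotated transcript per gene, and the 5′ end used in these cells was not measured.

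**Figure D4:**
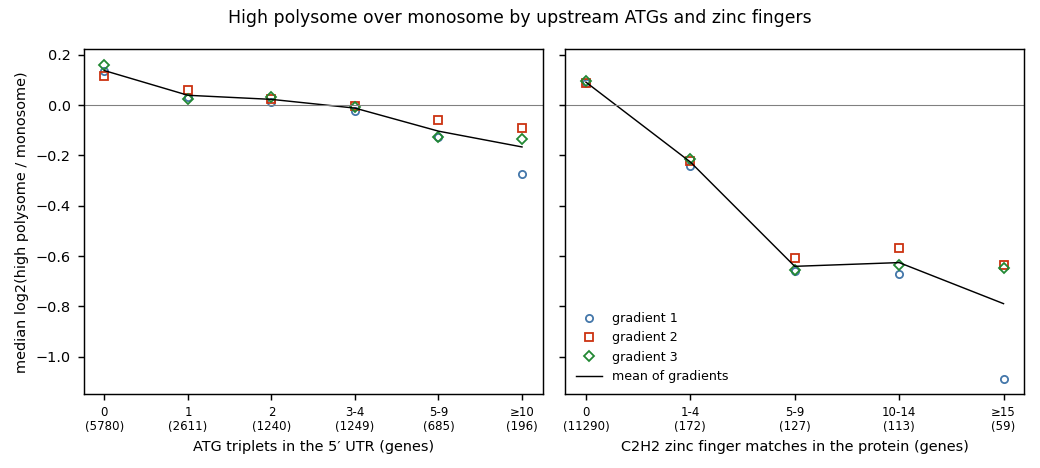
Median log2 difference between high polysome and monosome (y axis) over protein-coding genes by number of upstream ATGs in the 5′ UTR and by number of C2H2 zinc finger patterns, with 1 point per wild-type gradient. The medians go from 0.14 to -0.17 over the ATG classes and from 0.09 to -0.79 over the zinc finger classes.

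Chromatin complexes were mixed, with a lean to the heavy side for remodellers. ATP-dependent remodellers were higher in 18 of 27 and lower in 2. The lower ones were Smarcc2, a core subunit of BAF complexes that stem cells use little, at 138, 129 and 127 CPM in the monosome against 40.9, 35.1 and 41.6 CPM in the high polysome, and Brd9, of the non-canonical BAF complex, at -0.91. Polycomb genes were higher in 7 of 32 (21.9%, against 29.9% of all genes) and lower in 11 (34.4%, near the 33.0% of all genes). Their median changed sign with the processing. Cbx7, the reader of H3K27 methylation that prevails in stem cells, read 435, 380.3 and 460.3 CPM against 142, 159 and 133 CPM, and Rnf2, the ubiquitin ligase of the complex, 48.8, 47.7 and 42.5 CPM against 104, 131 and 119 CPM. Phf1 was at -2.42. Of the DNA methylation genes 3 of 14 were higher (Dnmt3l, Tet1 and Tet2) and 3 lower (Mbd2, Mbd3 and Uhrf2). Without replicate 3 the calls of Tet1 (0.31) and Tet2 (0.33) were lost, without replicate 2 those of Tet1 (0.37) and Uhrf2 (-0.43), and without replicate 1 that of Uhrf2 (-0.29). Those of Tet1 (0.34) and Tet2 (0.41) were also lost with no replicate block. Dnmt3l, the catalytically inactive partner of the de novo methyltransferases, read 219, 210.4 and 197 CPM against 450.3, 283 and 306 CPM. Among polyadenylated histone variants 9 of 16 were higher and 3 lower. Cenpa, the histone of centromeres, read 1723, 1482 and 1622 CPM against 311, 322 and 304 CPM, a log2 difference of -2.36, while H2afy2, a macroH2A, stood at 1.48. Of the SET-family histone methyltransferases 8 of 21 were higher (38.1%, against 29.9% of all genes) and 7 lower (33.3%, near the 33.0% of all genes). Kmt5a, which sets H4K20 monomethylation, stood at -1.29.

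Cell cycle regulators were higher in 11 of 21 genes and lower in 5, with a median of 0.53 ± 0.048. Ccna2, cyclin A2, read 93.6, 106 and 86.7 CPM in the monosome and 236, 344 and 257 CPM in the high polysome, and Cdk1 read 559, 522 and 516 CPM and 1330.0, 1477 and 1273 CPM. The lower genes were Ccne2, Pkmyt1, Ccnd3, Cdk2 and Cdkn1b, from -0.88 to -0.40. Without replicate 1 the calls of Pkmyt1 (-0.69), Cdk2 (-0.43) and Cdkn1b (-0.30) were lost, and without replicate 2 those of Pkmyt1 (-0.44) and Cdk2 (-0.56). The call of Cdk2 was also lost with no replicate block (-0.51). Of replication origin factors 8 of 23 were higher (34.8%, against 29.9% of all genes) and 6 lower (26.1%, against 33.0%). Gmnn, the licensing inhibitor, stood at 1.52 and Mcm10 at -0.68. Genes of the kinesin list were lower in 11 of 29 (37.9%, near the 33.0% of all genes) and higher in 5. Kif5a, a transport kinesin best known from neurons, was the lowest, at 48.4, 54.9 and 61.7 CPM against 5.37, 7.77 and 7.13 CPM. Its ubiquitous relative Kif5b stood at 0.77. The other higher ones were Kif2a, Kif3c, Kif13a and Kif1bp, the last a kinesin-binding protein and not itself a kinesin. The call of Kif3c was lost without any 1 of the gradients (0.62 to 0.74).

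Some messages of the integrated stress response, such as Atf4, are held back by upstream reading frames when cells are not stressed. Whether such frames account for the values below was not tested. The list of this response was not uniform, with 7 of 17 higher (41.2%, against 29.9% of all genes) and 6 lower (35.3%, near the 33.0% of all genes). Atf4, its main transcription factor, read 769, 864 and 875 CPM in the monosome and 464, 354 and 371 CPM in the high polysome, with a mean of 1587 CPM in the low polysome between them. Its log2 difference between high polysome and monosome was -1.08 (SE 0.15, limma adjusted p = 1.23e-05). Atf5 had the same order at a lower level, 38.9, 45.8 and 44.0 CPM, a mean of 88.8 CPM and 23.6, 14.5 and 25.5 CPM, and its difference was lost without replicate 2 (-0.76). Both were highest in the low polysome. Ddit3, which encodes Chop, read 80.5, 55.6 and 70.6 CPM against 13.4, 7.18 and 12.7 CPM, and Ppp1r15a, the inducible phosphatase subunit for eIF2, 86.1, 75.7 and 78.2 CPM against 29.8, 27.7 and 29.4 CPM. Its constitutive relative Ppp1r15b stood at 0.60. Of the p53 list 4 of 18 genes were higher and 8 lower. Trp53 itself was higher at 86.5, 93.5 and 75.1 CPM against 186, 146 and 194 CPM, whereas Ccng1, one of its targets, was at -1.46 and Polk, a translesion polymerase, at -1.88.

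Members of the RNA-binding families were called in both directions. Of the SR splicing factors 6 of 14 were higher (42.9%, against 29.9% of all genes) and 5 lower (35.7%, near the 33.0% of all genes). Srsf3 read 299, 308 and 291 CPM in the monosome and 651, 860.0 and 631 CPM in the high polysome, and Srsf5 read 238, 223 and 239 CPM and 36.6, 44.2 and 37.3 CPM. Of 20 hnRNP genes 8 were higher and 5 lower, with Hnrnpab at 391, 517 and 393 CPM against 2145, 2507 and 2126 CPM and Hnrnpdl at -1.75. The DEAD and DEAH box helicases were higher in 18 of 51 (35.3%, against 29.9% of all genes) and lower in 15 (29.4%, against 33.0%), with Ddx17 at 1562, 1214 and 1471 CPM against 249, 321 and 314 CPM. In the microRNA pathway Ago2 read 236, 247 and 234 CPM against 474, 572 and 569 CPM, while Dgcr8, of the nuclear microprocessor, stood at -2.04. Of the CCR4-NOT and decapping genes, which shorten and uncap mRNAs, 9 of 22 were higher and 5 lower, with the deadenylase Cnot6 at 92.8, 78.0 and 97.8 CPM against 19.7, 28.9 and 24.3 CPM. Nuclear pore genes were higher in 13 of 26 and lower in none. Mediator subunits were higher in 10 of 30 (33.3%, near the 29.9% of all genes) and lower in 5 (16.7%, against 33.0%). The lower ones were Med28, Med12, Med22, Med10 and Med20. The calls of Med12 (-1.28), Med20 (-0.42) and Med22 (-0.47) were lost without replicate 2, that of Med12 (-1.004) also without replicate 1 and that of Med20 (-0.34) without replicate 3.

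Outside the protein-coding genes the monosome prevailed. Long non-coding RNAs took 2.41% ± 0.0582 of the monosome counts and 0.414% ± 0.0274 of the high polysome counts (SD, n = 3), and of the 447 tested 329 were highest in the monosome, 111 in the low and 7 in the high polysome. The median log2 difference of all lncRNAs relative to that of all genes was -1.94 with the pseudocount of 0.5 CPM and -0.87 with one of 5 CPM, so its size depends on that choice. Subtype medians ran from -2.32 in 92 processed transcripts and -2.08 in 26 bidirectional-promoter RNAs through -2.04 in 194 lincRNAs, -1.73 in 107 antisense RNAs and -1.36 in 22 sense-intronic RNAs to -0.89 in 6 sense-overlapping RNAs. Malat1, a nuclear RNA, read 2854, 3173 and 3492 CPM in the monosome and 117, 183 and 190 CPM in the high polysome, with a mean of 876 CPM between them. It lies at chr19:5795690-5802672 (GRCm38), and its log2 difference was -4.31 (SE 0.16, limma adjusted p = 5.55e-12). Meg3, of the imprinted Dlk1 domain, read 2820.0, 2353 and 3074 CPM against 98.7, 96.0 and 116 CPM. Rian, from the same domain, had a smaller difference, 54.0, 48.4 and 45.0 CPM against 14.1, 23.02 and 22.5 CPM. Kcnq1ot1 overlapped between fractions at 15.9, 14.8 and 16.1 CPM against 14.1, 21.2 and 24.9 CPM, and was not past the test (limma adjusted p = 0.077).

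Host genes of small nucleolar RNAs, which carry these RNAs in their introns and have short or poor reading frames, were lower in all 21 tested genes, with a median of -3.94 ± 0.15. Gas5, one that also begins with a TOP sequence, read 1840.0, 1714 and 1723 CPM in the monosome and 114, 112 and 124 CPM in the high polysome. Snhg11 read 425, 351 and 478 CPM against 9.72, 10.7 and 14.8 CPM, a log2 difference of -5.15. Tsix, the antisense partner of Xist, read 69.8, 60.4 and 69.98 CPM against 1.02, 1.10 and 2.44 CPM. Only 5 lncRNAs were higher in the high polysome: Gm20712, Gm13205, Cct6a, Ifi30 and Brip1os, the last of which lost its call without replicate 1 (0.51) or 3 (0.43). Cct6a and Ifi30 are known protein-coding genes that the annotation used here lists as processed transcripts. Pseudogenes were lower in 213 of 301 and higher in 28, with a median of -1.26 ± 0.074, and their reads can belong to a parent gene of like sequence.

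**Figure D5:**
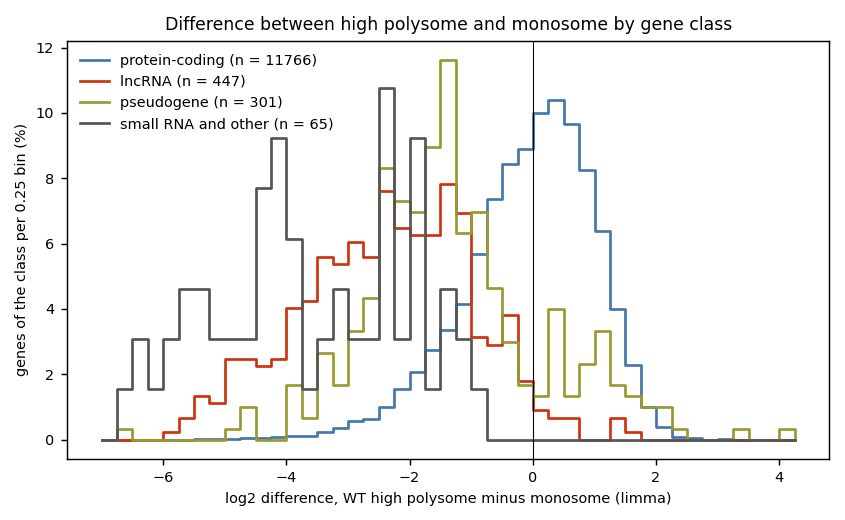
Distribution of the fitted log2 difference between high polysome and monosome (x axis, limma) in the gene classes of the annotation, as the percentage of the genes of a class in each bin (y axis). The lines are protein-coding genes, lncRNAs, pseudogenes, and small RNAs with other types. The fitted median is 0.06 for protein-coding genes, -1.455 for pseudogenes and -2.31 for long non-coding RNAs.

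Over all genes, the protein-coding genes with the largest positive differences at 10 CPM or more had varied roles. Celsr1, an atypical cadherin of planar cell polarity, read 4.76, 9.03 and 6.19 CPM in the monosome and 49.0, 44.6 and 42.9 CPM in the high polysome, a log2 difference of 2.70. Hmgb2, a chromatin protein of dividing cells, read 54.4, 59.0 and 56.6 CPM against 306, 370.5 and 285 CPM. Cd9, a tetraspanin of the cell surface, read 215, 181 and 147 CPM against 974, 925 and 804 CPM. Prdx1, a peroxiredoxin, was the most abundant of them, at 1010.0, 1256 and 1091 CPM against 6141, 4869 and 4883 CPM. At the other end, Pabpn1, the nuclear poly(A)-binding protein, read 142, 127 and 133 CPM against 5.88, 8.17 and 4.04 CPM, a log2 difference of -4.49. Tmsb10, a short actin-binding peptide from the actin and tubulin list, read 253.5, 223 and 264 CPM against 23.8, 27.4 and 23.6 CPM. In each of these 6 genes the monosome and high polysome libraries did not overlap, as in 8686 of all 12705 genes tested.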

How the data were processed

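The authors trimmed reads with cutadapt 1.14, aligned them to mm10 with STAR 2.5.3a, keeping unique reads, and counted them by strand with featureCounts 1.5.3 on Gencode M14 without rRNA plus ERCC spike-ins. The deposited values are raw counts per gene. Here spike-in rows (28 to 169 counts per library) were dropped, genes with at least 3 CPM in at least 3 libraries were kept, and gene types came from Gencode M21 (51274 of 51467 identifiers matched). Counts were scaled by TMM (edgeR 4.0.16) and fitted with limma 3.58.1 (voom) over all 18 libraries with the gradient as a block. The tests were two-sided, with Benjamini-Hochberg adjusted p under 0.05. A single-gradient ratio used CPM plus 0.5, and a list's median is its mean over 3 gradients. Libraries of the same number were taken as fractions of 1 gradient, which the labels do not state. Deviations of the matched libraries correlated at 0.0939, -0.0272 and 0.0350, against -0.0985 to 0.0752 for libraries of different number. This check therefore does not show the pairing. Named genes were preset genes, the extremes of all genes and of each list at 10 CPM or more, and calls of 5 or fewer in a list. The members and lists were chosen with earlier results of these data known. Alternatives were fits with fewer libraries or no block, edgeR, DESeq2 1.42.0, other scalings and filters, thinning and leaving out gradients. UMIs are not mentioned in the sources used here, and depth limits genes of few counts. Results of some genes are not reported here.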

Additional observations from a re-analysis of the deposited data

How the results depend on the processing

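No gene that was higher or lower took the opposite call under any alternative. The paired design was also fitted with no replicate block, which gave 3673 higher and 4087 lower genes and kept 7680 of 7982 calls. Leaving out each gradient in turn gave 3125 to 3535 higher and 3505 to 3657 lower genes. Without the filter on low values 6507 genes were lower, and a log2 difference over 1 left 1640 higher and 2679 lower. Medians that follow are relative to that of all genes. With a filter of 10 CPM the fitted medians went from -1.44 to -1.54 for large-subunit ribosomal proteins, 0.65 to 0.54 for pluripotency genes, -0.68 to -0.78 for numbered zinc fingers and -2.29 to -2.72 for lncRNAs. Small-subunit proteins (-1.68 to -1.78) and the proteasome (1.42 to 1.32) also moved down, with all 31 and 34 members kept. The movement was thus not particular to single lists. The median of all genes was then that of the 10104 genes kept. With a pseudocount of 5 the single-gradient medians went from -1.46 to -1.18 for large-subunit proteins, -0.63 to -0.40 for zinc fingers and -1.94 to -0.87 for lncRNAs. List medians near 0 changed sign: respiratory chain 0.0019 (thinned), SET methyltransferases -0.0672 to 0.037 and SR proteins -0.088 to 0.017 (leave-one-out, higher than 0 without replicate 3), stress response -0.00031 (10 CPM) and -0.093 (thinned), replication origin -0.062 (10 CPM) and -0.0050 to 0.12 (leave-one-out, lowest without replicate 2), and actin and tubulin -0.049 (10 CPM). Polycomb, just above 0 in the model used, took -0.0049 (edgeR), -0.0067 (DESeq2), -0.14 (10 CPM) and -0.093, -0.062 and -0.017 without replicates 1, 2 and 3. The causes were not tested.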
